A study of Triticum aestivum with 34 samples.

Results

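Asparagine synthetase transfers the amide nitrogen of glutamine to aspartate and so makes asparagine, an amino acid rich in nitrogen that plants use to store nitrogen and to move it between organs. Small gene families encode it. In Arabidopsis, 1 family member is known for transcripts that accumulate in darkness and when sugar is short, and in wheat the family is known for the free asparagine of the grain. Bread wheat carries the subgenomes A, B and D, so a gene is commonly present as a set of homoeologous copies, one in each subgenome.

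RNA sequencing had been done on spikelets, the small floret-bearing branches of a wheat ear, of untreated Triticum aestivum plants of the genotype shimai22. Basal spikelets and central spikelets were sampled at days 6, 9, 12, 15, 21 and 27 after the terminal spikelet stage, when no more spikelets are initiated, and all 12 groups shared the genotype and the lack of treatment. There were 17 basal and 17 central libraries, 3 in each of 10 groups and 2 in both basal day 15 and central day 21. The labels did not say whether replicates came from separate plants or how many spikelets were pooled, so the p-values measure the spread between these libraries, which may be technical.

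The deposited table held 162233 gene models, of which 21 had a description naming asparagine synthetase. FPKM, the fragments counted for a model scaled by its transcript length and by the library total, was at least 1 in at least 2 of the 34 libraries for 16 of these 21, and the 10 with the highest mean FPKM over all libraries were kept. The members were thus chosen by their measured level, and that they were the highest is no finding. The last one kept, on chromosome 1A, had a mean of 3.15 FPKM and the first one left out, TraesCS5B03G0211700, had 1.98. That model and TraesCS5A03G0207300 (1.62 FPKM) and TraesCS5D03G0218200 (1.14 FPKM) were described as asparagine synthetase domain-containing protein 1, with no enzyme number in the table. The other models left out past the filter were TraesCS1D03G0988900 (1.59 FPKM), TraesCS1B03G1214800 (0.736 FPKM) and the low-confidence TraesCS5A03G0421400LC (0.76 FPKM). Under the filter were 5 models. The low-confidence TraesCS5D03G0390000LC, TraesCS5D03G0389900LC and TraesCS1B03G1098800LC reached at most 0.94, 0.66 and 0.2 FPKM. The others were TraesCS3A03G0168600 and TraesCS3D03G0152000, neither of which passed 0.02 FPKM in any library. The wheat gene of this family on the chromosomes of homoeologous group 3 is known as the grain-expressed one, and transcripts of grain storage proteins were also near 0 here, at no more than 1.27 FPKM summed over 33 models.

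All 10 members carried the enzyme number of the glutamine-using asparagine synthetase in the deposited table. They fell into 4 sets by chromosome and description, without a comparison of sequences, which were not used here. The first set lay on the chromosomes of group 5, as TraesCS5A03G0421300 (5A:331878332-331883022, plus strand), TraesCS5B03G0418800 (5B:284925543-284928954, plus strand) and TraesCS5D03G0389800 (5D:250439210-250442605, plus strand). The second set lay on the chromosomes of group 4 and was described as asparagine synthetase 1, as TraesCS4A03G0227300 (4A:133262476-133266267, minus strand), TraesCS4B03G0544200 (4B:416819489-416823311, plus strand) and TraesCS4D03G0481800 (4D:338923185-338927206, plus strand). The third set lay on the chromosomes of group 1, and the copy on 1D was described as asparagine synthetase 3. Its copies were TraesCS1A03G0924600 (1A:555542386-555548742, plus strand), TraesCS1B03G1099700 (1B:643134672-643140933, plus strand) and TraesCS1D03G0907800 (1D:464472019-464477813, plus strand). The tenth member, TraesCS1A03G1029000 (1A:581589471-581595639, minus strand), was described as 2-like, and the models of the same description on 1B and 1D were the 2 of group 1 left out above. Coordinates are in the Chinese Spring RefSeq v2.1 build, with which 85.7% of the high-confidence models overlapped a protein-coding gene, against 6.4% after a shift of 5 Mb.

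Library totals ran from 95144712 to 126139684 counts, and a member's count in a library ran from 111 to 13657. As a check of the tissue, 28 of 32 MADS-box models of floral organ identity were expressed past the filter, with a summed level of 434 to 879 FPKM in basal and 531 to 1170 FPKM in central libraries. Green-tissue transcripts (90 chlorophyll a-b binding and Rubisco small subunit models, of which 85 passed the filter and none was at 0 in all libraries) moved with position and day. They summed to between 1980 and 2240 FPKM in basal and between 5240 and 5980 FPKM in central libraries of day 9, and to between 9670 and 10500 against 25500 to 29700 FPKM on day 15. On day 21 the order was the opposite, at 24400 to 25900 FPKM in basal and 19100 to 21500 FPKM in central libraries. Secondary wall and vascular transcripts (87 secondary wall cellulose synthase and laccase models, of which 33 passed the filter and none was at 0 in all libraries) moved too. They summed to between 183 and 192 FPKM in basal and between 377 and 405 FPKM in central libraries of day 15, and to between 894 and 992 against 585 to 635 FPKM on day 21. Anther transcripts (145 models named for tapetum, pollen or anther, of which 99 passed and 1 was at 0 in all libraries) summed to between 148 and 149 FPKM in basal and between 183 and 215 FPKM in central libraries of day 15, and overlapped between the positions on days 21 and 27. In whole spikelets, fewer cells of a type and less transcript in each cell cannot be told apart, and the part of these tissues in the differences below was not tested.

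The sums of the 10 members lay close between the positions on days 6 and 9. Single copies differed by up to 9.52-fold and in opposite directions. The 10 members summed to 126.7 ± 2.1 FPKM (SD, n = 3) in basal and 123.5 ± 0.839 FPKM (n = 3) in central spikelets on day 6, and to 158.4 ± 12.9 and 156.2 ± 1.0 FPKM on day 9. On day 12 the basal sum was 154.0 ± 12.4 FPKM and the central sum 105.8 ± 3.3 FPKM, with ranges that did not overlap. By day 27 the sums were 55.1 ± 5.8 FPKM in basal spikelets and 62.0 ± 5.8 FPKM in central ones. In the mean of the 6 daily differences, 3 members were higher in basal spikelets (on 5D, 5A and 4D), 2 were lower (on 5B and 1B) and 5 passed in neither direction, by edgeR's quasi-likelihood test at a Benjamini-Hochberg adjusted p under 0.05. Of all 71963 models tested, 33.5% passed in that comparison, so 5 of 10 members is a share not far from the background. The median log2 difference was 0.05 over the members and -0.004 over all models. All log2 differences below are basal minus central unless said otherwise, with the standard error (SE) of the fit.

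**Figure D1:**
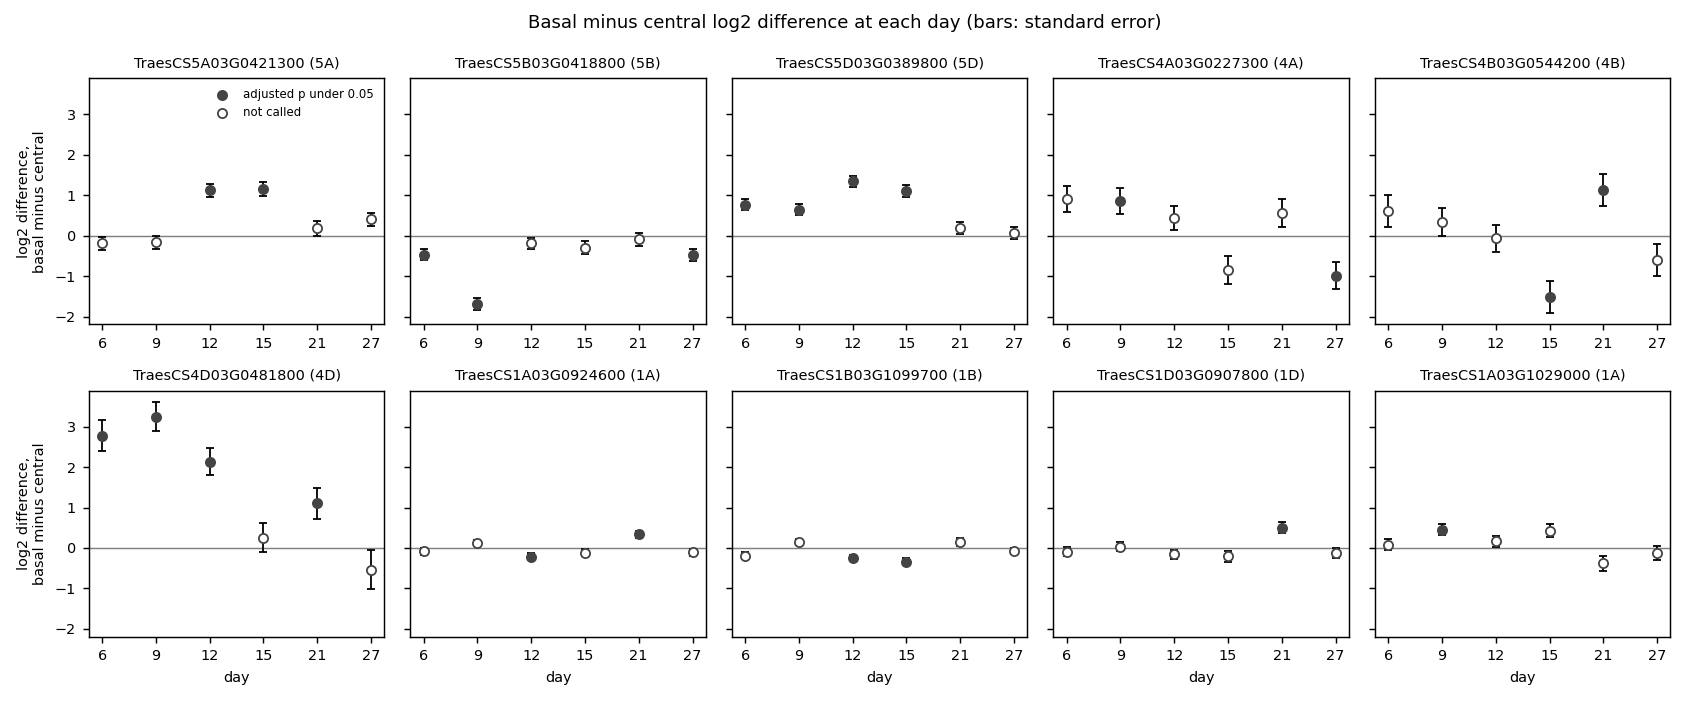
Log2 difference, basal minus central, of each of the 10 asparagine synthetase genes (1 panel each, chromosome in parentheses) against the day after the terminal spikelet stage, from the edgeR fit, with bars of 1 SE and filled points for an adjusted p under 0.05. The 4D copy stands highest at 3.25 on day 9 and the 5B copy lowest at -1.69 on the same day, whereas the group 1 genes stay between -0.38 and 0.51.

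The group 5 copies gave 66.4 of the members' 126.7 FPKM in basal and 66.7 of 123.5 FPKM in central spikelets on day 6. On day 9 they gave 84.3 of 158.4 FPKM in basal and 106.4 of 156.2 FPKM in central spikelets. On day 12 they gave 85.5 of 154.0 FPKM in basal and 48.8 of 105.8 FPKM in central spikelets. The copy on 5D was the most abundant in basal spikelets on days 6 to 15. Its basal libraries were at 29.47, 29.47 and 29.97 FPKM on day 6, against 17.61, 18.34 and 19.11 FPKM in central ones. On day 12 they were at 39.23, 40.97 and 43.76 FPKM, against 16.89, 16.17 and 14.8 FPKM, and on day 15 the basal libraries were at 25.52 and 21.31 FPKM against 8.93, 11.13 and 10.31 FPKM. Every basal library lay above every central library of its day on days 6, 9, 12 and 15. The difference was 0.76 ± 0.14 on day 6 (adjusted p = 0.000237), 0.64 ± 0.14 on day 9 (adjusted p = 0.000477), 1.35 ± 0.14 on day 12 (2.54-fold, adjusted p = 4.03e-08) and 1.096 ± 0.151 on day 15 (adjusted p = 4.87e-06). On days 21 and 27 the positions overlapped, with basal libraries at 12.06, 9.74 and 8.4 FPKM against 9.31 and 10.02 FPKM on day 21, and log2 differences of 0.20 ± 0.16 (adjusted p = 0.428) and 0.07 ± 0.14 (adjusted p = 0.782). Without central day 27 replicate 3, at 17.27 FPKM against 11.95 and 11.03 FPKM in the other central libraries, the day 27 difference was 0.34 with an adjusted p of 0.0418. Over the mean of 6 days the 5D copy was 1.61-fold higher in basal spikelets (0.68 ± 0.06, adjusted p = 7.19e-10).

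The copy on 5B went the other way. In central spikelets it was at 23.77, 25.06 and 25.84 FPKM on day 6, at 48.85, 47.43 and 51.45 FPKM on day 9 and at 22.12, 22.13 and 21.18 FPKM on day 12. In basal spikelets it was at 16.33, 16.8 and 18.34 FPKM, then 15.56, 14.18 and 16.01 FPKM, then 19.83, 18.84 and 20.04 FPKM on the same days. The rise and fall around day 9 was thus present in the central libraries, and the basal libraries of the 3 days lay within 14.18 to 20.04 FPKM. The difference was -1.69 ± 0.14 on day 9 (3.22-fold lower in basal spikelets, adjusted p = 3.18e-10). It was -0.47 ± 0.14 on day 6 (adjusted p = 0.0205) and -0.47 ± 0.14 on day 27 (adjusted p = 0.0197), and between -0.30 and -0.09 on days 12, 15 and 21, none of which passed. The day 6 call did not hold without basal replicate 1 or 2 or central replicate 2 or 3 of that day, with adjusted p-values of 0.0521 to 0.0686. The day 27 call did not hold without basal replicate 1 or 3 or central replicate 2 or 3 of that day, at 0.0606 to 0.134. Over the mean of 6 days the 5B copy was 1.45-fold lower in basal spikelets (-0.53 ± 0.06, adjusted p = 9.68e-08).

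The copy on 5A shared the basal excess of the 5D copy on days 12 and 15 but not earlier. On day 6 it was at 20.35, 19.21 and 19.19 FPKM in basal and 23.32, 24.11 and 23.07 FPKM in central libraries. There the central libraries lay above all basal ones, though the difference was not called (-0.19 ± 0.16, adjusted p = 0.472). It was at 29.66, 25.08 and 24.21 FPKM in basal and 28.01, 29.24 and 31.5 FPKM in central libraries on day 9, which overlap. On day 12 it was at 22.22, 25.31 and 26.19 FPKM in basal against 11.53, 11.48 and 10.19 FPKM in central libraries, and on day 15 at 19.32 and 16.05 against 6.03, 7.88 and 8.12 FPKM. The basal libraries were above all central libraries on both days, by 1.12 ± 0.17 on day 12 (2.18-fold, adjusted p = 1.15e-05) and 1.15 ± 0.18 on day 15 (2.22-fold, adjusted p = 2.73e-05). On days 6, 9, 21 and 27 the difference ran from -0.19 to 0.41 and passed on none. On day 27 it passed without basal replicate 1 (0.56, adjusted p = 0.0243) or without central replicate 3 (0.68, adjusted p = 0.00287). Its mean of 6 days was 0.42 ± 0.07 (1.34-fold, adjusted p = 3.11e-05).

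**Figure D2:**
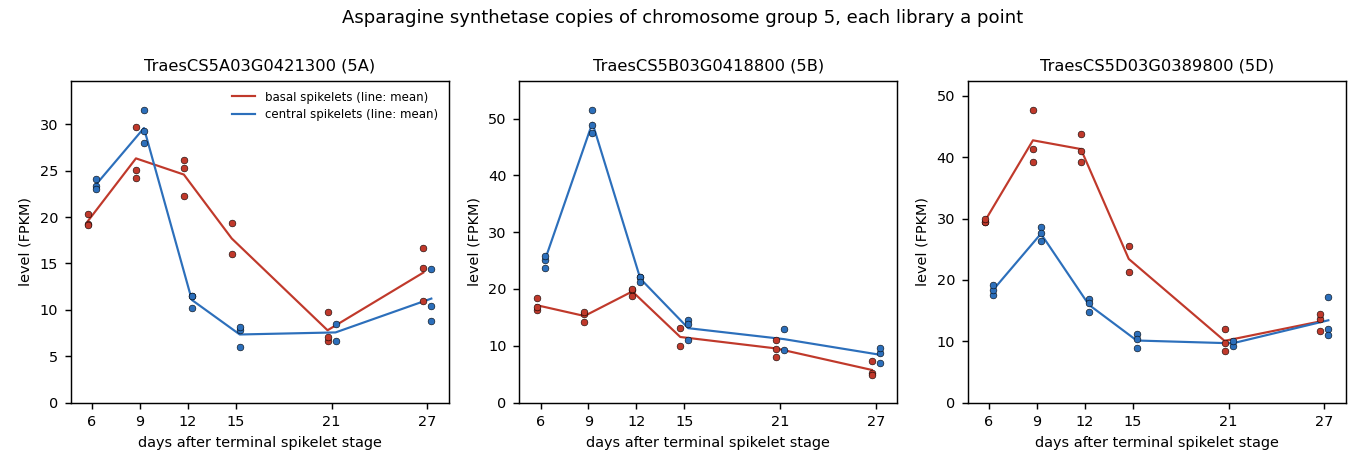
FPKM of the asparagine synthetase copies on 5A, 5B and 5D in each library (points) with group means (lines), in basal and central spikelets, against the day after the terminal spikelet stage. The 5B copy peaks at a mean of 49.2 FPKM in central spikelets on day 9 while the basal libraries stay near 15.3 FPKM, and the 5D copy is higher in basal spikelets on days 6 to 15.

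The composition of the group 5 set therefore differed between the positions. On day 9 the 5D copy gave 50.7 ± 1.1% of the summed FPKM of the 3 copies in basal spikelets and 25.9 ± 1.1% in central ones, and the 5B copy gave 18.2 ± 1.8% and 46.3 ± 0.25%. On day 12 the 5D share was 48.3% against 32.7%, and the 5B share 22.9% against 44.7%. On day 21 the shares lay closer together, at 36.7% and 34.3% for 5D and at 34.9% and 39.1% for 5B. The log2 ratio of 5B to 5D was -0.94 in basal and 0.28 in central libraries, a difference of -1.22 that had its sign on 6 of 6 days (from -2.32 to -0.26). A permutation test of the position labels within days, with 100000 draws, two-sided, gave p = 1e-05, the smallest it could give (adjusted over 9 pairs of copies, 2.25e-05). The ratio of 5A to 5B differed by 0.95, also on 6 of 6 days and with the same permutation p. The ratio of 5A to 5D differed by -0.27 on 4 of 6 days (permutation p = 0.00905, adjusted p = 0.0163), but without day 9 it differed by -0.16 and the permutation test gave an adjusted p of 0.132. This test was added after the values had been seen. Near-identical copies may share reads, and how the authors assigned such reads was not given in the sources used here. With the counts of the 3 copies summed before the fit, the set was 0.22 higher in basal spikelets over the mean of 6 days (adjusted p = 0.00369), which is opposite in sign to the 5B copy alone. By day the sum differed by -0.34 on day 9 (adjusted p = 0.053). It differed by 0.775 on day 12 and 0.66 on day 15 (adjusted p = 0.000121 and 0.00162). On days 6, 21 and 27 it differed by 0.066 to 0.085, without passing.

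Low-confidence models on the minus strand overlapped the 5A and 5D copies. They had means of 0.76 FPKM for the model on 5A and of 0.316 and 0.552 FPKM for the pair on 5D, against 16.9 and 21.6 FPKM for the copies themselves. Whether the counting used strand was not given, so reads of the overlapping models cannot be told apart from reads of the copies.

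**Figure D3:**
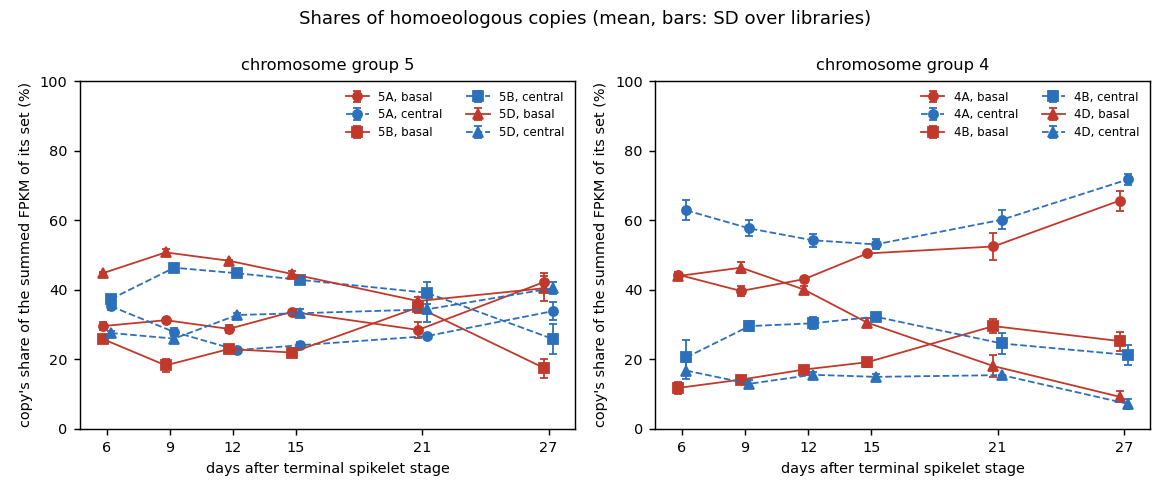
Share in percent of the summed FPKM of a homoeologous set that each copy gave, as mean and SD of the libraries of a group, with basal spikelets in red and central spikelets in blue, by day. On day 9 the 5D copy gives 50.7% in basal and 25.9% in central spikelets, and the 4D copy gives 46.3% and 12.9%.

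The group 4 set had its largest difference in the copy on 4D. On day 6 it was at 7.09, 6.13 and 6.11 FPKM in basal libraries and at 1.05, 0.73 and 1.16 FPKM in central ones. On day 9 it was at 17.41, 14.78 and 13.34 FPKM against 1.55, 1.9 and 1.33 FPKM, and on day 12 at 10.21, 16.41 and 16.34 FPKM against 2.65, 3.04 and 3.96 FPKM. The ranges of the positions lay far apart on all 3 days, by 2.78 ± 0.37 (6.88-fold, adjusted p = 4.87e-06), 3.25 ± 0.36 (9.52-fold, adjusted p = 4.8e-08) and 2.14 ± 0.34 (4.40-fold, adjusted p = 3.68e-05). On day 15 the basal libraries were at 8.59 and 9.95 FPKM and the central ones at 7.25, 5.75 and 8.58 FPKM, a difference of 0.25 ± 0.36 (adjusted p = 0.691). On day 27 every library of both positions was between 0.41 and 0.82 FPKM. Over the mean of 6 days the 4D copy was 2.82-fold higher in basal spikelets (1.498 ± 0.157, adjusted p = 2.85e-08), the largest such difference among the 10 members.

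The basal excess of the 4A copy was smaller than that of 4D, and the 4B copy had no called excess on days 6 and 9. The 4A copy was at 15.77, 13.01 and 10.53 FPKM in basal and 7.39, 9.04 and 5.19 FPKM in central libraries on day 9, with ranges that did not overlap. Its difference there was 0.86 ± 0.31 (1.82-fold, adjusted p = 0.0312), a call that did not hold without basal replicate 1 or 2 or central replicate 1 or 3 of that day (adjusted p from 0.0565 to 0.15). On day 6 the 4A copy was at 7.16, 6.26 and 6.1 FPKM in basal against 3.83, 3.11 and 4.03 FPKM in central libraries, without overlap. The difference was 0.90 ± 0.32 (1.87-fold, adjusted p = 0.0527). It passed without basal day 12 replicate 1, basal day 21 replicate 2 or basal day 21 replicate 3 (adjusted p from 0.0101 to 0.0425), which enter only through the shared spread. The 4B copy was under 2 FPKM in all libraries of day 6 and differed by 0.61 ± 0.40 then and by 0.35 ± 0.35 on day 9, with adjusted p-values of 0.323 and 0.483. On day 15 the order was the reverse, with central libraries above basal ones. The green-tissue and the secondary wall and vascular sums were also higher in central libraries on day 15. They were so on days 6, 9 and 12 too. Sums of floral organ identity and anther transcripts were likewise higher in central libraries on day 15. The part of these tissues was not tested. The 4B copy was at 4.98 and 6.75 FPKM in basal and at 15.23, 12.73 and 18.7 FPKM in central libraries (-1.52 ± 0.39, 2.87-fold lower in basal spikelets, adjusted p = 0.00531), and without basal day 15 replicate 1 the adjusted p was 0.0911. The 4A copy was at 13.8 and 16.89 FPKM against 23.7, 21.48 and 31.79 FPKM on that day, again without overlap, by -0.86 ± 0.35 (adjusted p = 0.0775), which passed without basal day 21 replicate 2 (adjusted p = 0.0352) or replicate 3 (adjusted p = 0.0179).

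The basal libraries of day 21 stood apart from each other in all copies of the set. Replicates 1, 2 and 3 were at 16.68, 28.89 and 6.71 FPKM for 4A, at 9.33, 18.45 and 3.36 FPKM for 4B and at 6.91, 10.77 and 1.72 FPKM for 4D. Central libraries of that day were at 11.63 and 14.18, at 5.31 and 5.12 and at 3.07 and 3.55 FPKM, inside the basal range for each copy. The difference was 1.13 ± 0.39 for 4B (adjusted p = 0.0453) and 1.102 ± 0.383 for 4D (adjusted p = 0.0469), and 0.57 ± 0.35 for 4A (adjusted p = 0.278). These calls rested on single libraries. Without basal replicate 2 the differences were 0.43 for 4B (adjusted p = 0.441) and 0.52 for 4D (adjusted p = 0.358), and the 4A copy passed without basal replicate 3 (0.96, adjusted p = 0.0241). Of the 34 fits that each left out 1 library, the 4D call was lost in 24 and the 4B call in 15. On day 27 the 4A copy was at 3.6, 2.46 and 3.08 FPKM in basal and at 5.99, 6.11 and 7.22 FPKM in central libraries (-0.98 ± 0.33, adjusted p = 0.0302), and the adjusted p was 0.0502 to 0.105 without basal replicate 2 or 3 or central replicate 2 or 3.

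**Figure D4:**
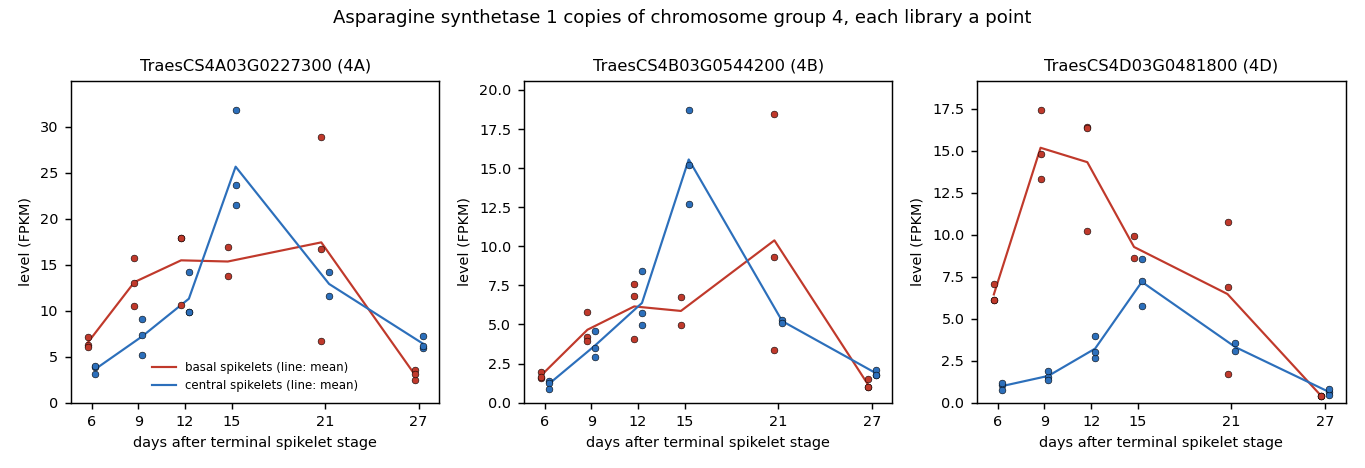
FPKM of the asparagine synthetase copies on 4A, 4B and 4D in each library (points) with group means (lines), in basal and central spikelets, against the day after the terminal spikelet stage. The 4D copy is at 13.34 to 17.41 FPKM in basal and 1.33 to 1.9 FPKM in central libraries on day 9, the 4A and 4B copies are highest in central spikelets on day 15, and the basal libraries of day 21 spread widely.

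The make-up of the group 4 set changed over the days in basal spikelets. The 4D share of the summed FPKM was 43.9 ± 1.1% on day 6, 46.3 ± 1.6% on day 9, 39.1 to 41.0% on day 12, 30.5 ± 1.3% on day 15, 18.0 ± 3.2% on day 21 and 9.17 ± 1.6% on day 27. In central spikelets it lay between 12.9% and 16.7% on days 6 to 21 and was 7.12 ± 1.5% on day 27. The 3 basal libraries of day 21 had 4D shares of 14.6 to 21.0% although their summed levels ran from 11.8 to 58.1 FPKM. The log2 ratio of 4A to 4D was 0.84 in basal and 2.18 in central libraries, a difference of -1.33 with the same sign on 6 of 6 days, and the ratio of 4B to 4D differed by -1.52, with that sign on 5 of 6 days. The permutation test gave p = 1e-05 for both (adjusted p = 2.25e-05). The ratio of 4A to 4B differed by 0.19 (permutation p = 0.0982, adjusted p = 0.111). With the counts of the set summed, the mean of 6 days was 0.49 higher in basal spikelets (adjusted p = 0.00618). By day the sum differed by 1.45 on day 6 and 1.46 on day 9 (adjusted p = 0.00242 and 0.000672). It differed by 0.81 on day 12, -0.76 on day 15, 0.82 on day 21 and -0.86 on day 27. None of these last differences passed (adjusted p from 0.0561 to 0.133).

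The group 1 copies of the third set were close to each other in level and differed little between the positions. On day 6 the copies on 1A, 1B and 1D were at means of 12.8, 12.5 and 13.1 FPKM in basal spikelets and 14.2, 15.0 and 14.6 FPKM in central ones, and on day 27 at 5.51, 6.65 and 4.53 FPKM and at 6.33, 7.48 and 5.27 FPKM. Over the mean of 6 days the 1B copy was lower in basal spikelets by 0.09 on the log2 scale (-0.09 ± 0.03, 1.06-fold, adjusted p = 0.0393). That call was lost in 11 of the 34 fits without 1 library (adjusted p from 0.0529 to 0.0989) and with no filter on low values (adjusted p = 0.119). The 1A and 1D copies differed by -0.01 ± 0.04 and -0.01 ± 0.05, with adjusted p-values of 0.89 and 0.967. None of the ratios between these copies passed, with differences of 0.08 (1A to 1B, permutation p = 0.043, adjusted p = 0.0645), -0.01 (1A to 1D, permutation p = 0.885) and -0.09 (1B to 1D, permutation p = 0.0692, adjusted p = 0.089). Without day 9, the ratios of 1A to 1B (0.10, adjusted permutation p = 0.0324) and of 1B to 1D (-0.13, adjusted permutation p = 0.0256) passed.

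On single days the third set had small differences of both signs. On day 12 the 1B copy was at 9.23, 8.99 and 8.81 FPKM in basal and 10.22, 9.91 and 11.26 FPKM in central libraries (-0.24 ± 0.08, adjusted p = 0.0232), and the 1A copy was lower by 0.22 (-0.22 ± 0.08, adjusted p = 0.0486). On day 15 the 1B copy was at 7.89 and 8.11 against 8.97, 9.25 and 9.79 FPKM (-0.34 ± 0.09, adjusted p = 0.00642). The calls were lost without 1 library. On day 12 that of 1B was lost without basal replicate 1, basal replicate 3 or central replicate 3 (adjusted p from 0.0532 to 0.105). That of 1A on day 12 was lost in 24 of 34 fits (0.0512 to 0.146). On day 15 that of 1B was lost without basal replicate 1 (difference of -0.33). Limma on log2(FPKM + 1) made none of these calls. Its values were -0.19 for 1B and -0.17 for 1A on day 12 (adjusted p = 0.0851 and 0.121). On day 15 it gave -0.20 for 1B (adjusted p = 0.123). On day 21 the 1A copy was at 7.01, 6.97 and 7.22 FPKM in basal against 6.26 and 6.05 FPKM in central libraries (0.34 ± 0.09, adjusted p = 0.014), and the 1D copy at 5.85, 6.67 and 5.45 against 4.5 and 4.77 FPKM (0.51 ± 0.14, adjusted p = 0.0105). Limma on log2(FPKM + 1) called neither (adjusted p = 0.191 for 1A and 0.0907 for 1D). Neither call held when 1 of the central libraries of that day was left out. Without replicate 1 or replicate 2 the adjusted p was 0.0504 or 0.142 for 1A and 0.0878 or 0.0641 for 1D.

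The tenth member, the 2-like gene TraesCS1A03G1029000, was highest on day 6, at 7.07, 7.66 and 7.06 FPKM in basal and 7.66, 7.12 and 6.8 FPKM in central libraries, which overlap. On day 27 it was at 0.79, 1.0 and 0.58 against 1.26, 0.78 and 0.71 FPKM. On day 9 all basal libraries, at 4.85, 5.44 and 4.85 FPKM, lay above all central ones, at 3.55, 4.0 and 3.53 FPKM (0.45 ± 0.14, 1.37-fold, adjusted p = 0.0128). That call did not hold without basal replicate 2 (adjusted p = 0.0531) or central replicate 3 (adjusted p = 0.0517) of day 9, and the mean of 6 days was 0.10 ± 0.07 (adjusted p = 0.238). On day 15 the basal libraries, at 2.49 and 2.18 FPKM, again lay above the central ones, at 1.38, 1.65 and 1.78 FPKM (0.43 ± 0.17, adjusted p = 0.0687). That difference passed in limma on log2(FPKM + 1) (0.36, adjusted p = 0.0198) and, in edgeR, without basal day 27 replicate 3 (adjusted p = 0.047) or central day 27 replicate 1 (adjusted p = 0.0318).

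**Figure D5:**
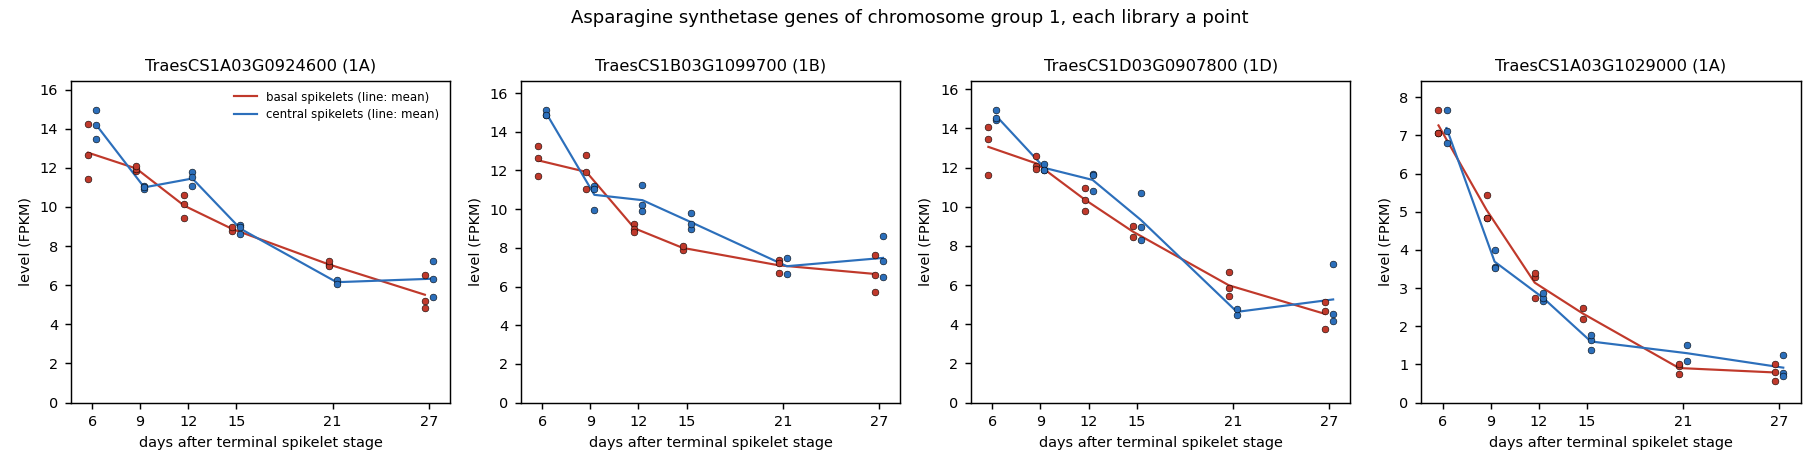
FPKM of the 4 asparagine synthetase genes on group 1 chromosomes in each library (points) with group means (lines), in basal and central spikelets, against the day after the terminal spikelet stage. Levels are highest on day 6, at means of 12.5 to 15.0 FPKM for the third set and about 7.2 FPKM for the 2-like gene, and the positions stay close on all days.

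Counted by day, 2 members were higher and 1 lower in basal spikelets on day 6, where 17.1% of all models passed, and 4 were higher and 1 lower on day 9, where 36.3% passed. On day 12 there were 3 higher and 2 lower against a background of 28.1%, and on day 15 there were 2 higher and 2 lower against 22.7%. On day 21 there were 4 higher and none lower against 17.1%, and on day 27 none higher and 2 lower against 21.7%. At an unadjusted p under 0.05, edgeR had 0 members lower on day 21 and 1 higher on day 27. DESeq2 and limma also called 0 there, with 1 each at an unadjusted p under 0.05. The 4 calls of day 21, on 4B, 4D, 1A and 1D, are those described above as lost without 1 library. The basal minus central difference changed over the days for all 10 members, by an F test over 5 contrasts in edgeR (adjusted p from 2.22e-06 for 5B to 0.0253 for the 2-like gene), and for 56.7% of all models. For the 5B copy that change rested on day 9, since the adjusted p was 0.444 without it, and the 2-like gene had 0.11 without day 9. The 1D copy lost this call without basal day 21 replicate 2 (0.064), central day 21 replicate 1 (0.1) or central day 21 replicate 2 (0.0691), and the 2-like gene without basal day 21 replicate 3 (0.0574) or central day 21 replicate 1 (0.106).

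All 10 members also changed over the days within basal and within central spikelets (F tests over the 5 steps), where 92.1% and 88.1% of all models did, so that change itself was near the background. The courses of the sets differed in shape. In central spikelets from day 6 to day 9, the 5B copy rose by 0.92 ± 0.14 on the log2 scale (adjusted p = 5.95e-06) and the 5D copy by 0.52 ± 0.14 (adjusted p = 0.00295). In that step 4 members rose and 4 fell, and 42.0% of all models passed. From day 9 to day 12 all group 5 copies fell in central spikelets, 5A by 1.42, 5B by 1.17 and 5D by 0.79 on the log2 scale (adjusted p of at most 7.88e-05 for each), among 1 member that rose and 4 that fell against a background of 29.1%. From day 12 to day 15 the group 4 copies rose together in central spikelets, 4A by 1.35 ± 0.31 (adjusted p = 0.00112), 4B by 1.45 ± 0.34 (adjusted p = 0.00134) and 4D by 1.33 ± 0.34 (adjusted p = 0.00285), while the group 5 copies fell by 0.43 to 0.58 on the log2 scale. That step had 3 members higher and 4 lower, with 35.5% of all models past the threshold, and the fall of 5A (adjusted p = 0.0433) was lost without central day 12 replicate 1 or 2 or central day 15 replicate 1 or 2 (0.0564 to 0.206).

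Between days 21 and 27 the group 4 copies fell in both positions. In basal spikelets the log2 change was -3.96 for 4D (15.6-fold, adjusted p = 4.59e-09), -3.155 for 4B (8.91-fold, adjusted p = 7.34e-08) and -2.52 for 4A (5.75-fold, adjusted p = 2.5e-07). The 5A copy rose by 0.83 ± 0.17 in the same step (adjusted p = 0.000111) and the 5B copy fell by 0.75 (adjusted p = 6.73e-05). The basal libraries of day 21 carried these sizes unequally, and without basal day 21 replicate 2 the log2 change was -3.38 for 4D, -2.45 for 4B and -1.96 for 4A, each still past the threshold (adjusted p of 3.05e-08, 6.37e-07 and 3.64e-06). In all, 2 members rose and 6 fell in basal spikelets, against 57.9% of models that passed. In central spikelets the log2 change was -2.32 for 4D (adjusted p = 4.75e-05), -1.43 for 4B (adjusted p = 0.00404) and -0.97 for 4A (adjusted p = 0.0217), among 2 members that rose and 4 that fell, with 45.8% of models past the threshold. The summed secondary wall and vascular transcripts were also lower on day 27 than on day 21, at 188 to 210 against 894 to 992 FPKM in basal libraries and at 122 to 163 against 585 to 635 FPKM in central ones. Green-tissue transcripts were at 10100 to 11800 and at 4980 to 11500 FPKM on day 27, below their day 21 sums, while anther transcripts were higher, without overlap of the days, reaching 926 against 384 FPKM in basal and 721 against 448 FPKM in central libraries. The part of these in the falls was not tested. The fall of 4A in central spikelets was lost without central day 27 replicate 1 or 2 (adjusted p = 0.0649 and 0.054). Without central day 21 replicate 2 its log2 change was -0.84. The rises there, of 5A and 5D, were lost without central day 27 replicate 3 (0.0932 and 0.107). The fall of the 2-like gene was lost without central day 27 replicate 2 or 3 (0.132 and 0.166). In basal spikelets the 5D rise was lost without replicate 2 or 3 of day 21 or replicate 3 of day 27 (0.0536 to 0.138). The basal fall of 1D was lost without basal day 27 replicate 3 (0.082).

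Basal libraries were also set against central libraries of the sampling day before. The developmental stage of the positions on a given day was not given in the labels, and its part in the differences was not tested. The 4D copy was 3.88 ± 0.38 higher in basal day 9 than in central day 6 libraries (adjusted p = 2.19e-08), 3.14 ± 0.36 higher in basal day 12 than in central day 9 (adjusted p = 1.95e-07) and 1.58 ± 0.37 higher in basal day 15 than in central day 12 (adjusted p = 0.00239). The 5D copy was higher by 1.16 ± 0.14, 0.56 ± 0.14 and 0.60 ± 0.15 (adjusted p = 6.28e-07, 0.00279 and 0.00488). The 5B copy was lower in all 3, with differences of -0.77 ± 0.14, -1.36 ± 0.14 and -0.87 ± 0.16 (adjusted p = 0.000228, 3.6e-08 and 0.00022). The 4A copy differed by 1.78 ± 0.32, 1.08 ± 0.31 and 0.49 ± 0.34 (adjusted p = 0.000213, 0.0109 and 0.345). Its second call was lost without central day 9 replicate 3 (0.07) or basal day 12 replicate 2 (0.0575). The 4B copy differed by 1.92 ± 0.38, 0.72 ± 0.35 and -0.07 ± 0.38 (adjusted p = 0.00055, 0.134 and 0.941). Members called numbered 4 higher and 5 lower in the first of these comparisons, against a background of 24.0%, then 3 higher and 2 lower against 25.8%, and 3 higher and 3 lower against 20.7%. In the last, leaving out basal day 15 replicate 1 ended 4 of the 6 calls, those of 5D (0.45, adjusted p = 0.128), 5A (0.57, adjusted p = 0.105) and the 1A and 1B copies of the third set. These comparisons share libraries with those of single days.

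Ordered by level, the 12 groups separated to different degrees. The 4D copy ran from 15.2 ± 2.1 FPKM in basal day 9 to 0.417 ± 0.0058 FPKM in basal day 27 spikelets, a 36.4-fold range, and in 6 of 11 neighbouring steps of that order the libraries did not overlap. Basal day 9 and basal day 12 overlapped at its top. The 5D copy had a 4.42-fold range, from 42.7 ± 4.4 FPKM in basal day 9 to 9.67 FPKM in central day 21 spikelets, and the 5B copy an 8.56-fold range, from 49.2 FPKM in central day 9 to 5.75 FPKM in basal day 27 spikelets. The third set on group 1 had ranges of 2.25-fold (1B) to 3.23-fold (1D), each from central day 6 to basal day 27 spikelets. Over the 12 group means of log2(FPKM + 1), which share libraries and the course of the days, Pearson's r was 0.990 between the 1A and 1D copies of the third set, 0.955 between 4A and 4B, 0.772 between 4A and 4D, 0.898 between 5D and 5A and 0.508 between 5D and 5B.

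The models most like the highest member of each set were found by the same correlation over 12 group means. For the 5D copy these were 2 models of uncharacterized proteins, TraesCS2B03G0401100 (r = 0.974) and TraesCS7A03G1033100 (r = 0.970), and TraesCS7A03G0570000, described as a Ras-group-related leucine-rich repeat protein (r = 0.966). For the 4A copy they were TraesCS1D03G0285500, described as a crocetin glucosyltransferase (r = 0.951), and TraesCS5B03G1225300 and TraesCS5D03G1105700, both described as transmembrane protein 184A-like (r = 0.915 and 0.906). For the 1B copy they were TraesCS2D03G1107400 and TraesCS5A03G0734100, subunits of the proteasome, which degrades proteins (r = 0.977 and 0.973), and TraesCS7B03G0509200, described as an afadin- and alpha-actinin-binding protein (r = 0.976). For the 2-like gene they were TraesCS2A03G1147400, an auxin response factor, TraesCS6B03G1077100, a hypothetical protein, and TraesCS2D03G0992400, described as trichohyalin-like (r = 0.993 for each). With 71963 models searched, high values of r are found for many profiles, and these likenesses are descriptions.

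Other genes of nitrogen and amino acid metabolism, taken by words in the deposited descriptions, were counted over the mean of 6 days. The direction was not the same on every day for several lists. The median log2 difference of aspartate aminotransferase was -0.56 on day 9 and 0.16 on day 21. That of glutamate synthase was -0.545 on day 12 and 0.33 on day 27. The counts that follow are those of the mean of 6 days. Glutamine synthetase, which makes the glutamine that asparagine synthetase uses, had 15 models tested, of which 1 was higher and 11 lower, with a median log2 difference of -0.46. TraesCS4B03G0655900, described as glutamine synthetase GSr1, was at a mean of 10.6 FPKM over basal and 24.7 FPKM over central libraries (-1.17 ± 0.09, adjusted p = 1.27e-10). Aspartate aminotransferase, which makes aspartate, had 0 higher and 12 lower of 14, with a median of -0.27, among them TraesCS7B03G0751700 (-0.73 ± 0.06, adjusted p = 4.6e-10). Asparaginase, which breaks asparagine down, had 0 higher and 7 lower of 10, with a median of -0.39, and the model TraesCS2B03G1350700, joined with 2 neighbouring annotated genes, was at 1.63 against 3.58 FPKM (-1.02 ± 0.09, adjusted p = 2.86e-09). Glutamate synthase had 0 higher and 4 lower of 9, led by the ferredoxin-dependent TraesCS2B03G0370500 (-0.41 ± 0.06, adjusted p = 2.13e-06), and glutamate dehydrogenase 3 higher and 4 lower of 13, with TraesCS5D03G0968500 at -0.66 ± 0.08 (adjusted p = 1.63e-07) and TraesCS3B03G0565600 at 0.12 ± 0.03 (adjusted p = 0.00651). The 1 glutamine synthetase model called higher was TraesCS2B03G0655000LC (0.34 ± 0.07, adjusted p = 0.000358). At an unadjusted p under 0.05, edgeR had 0 higher models of aspartate aminotransferase and asparaginase and 1 of glutamate synthase, and DESeq2 and limma called 0 higher in these 3 lists.

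Among models described as nitrate transporter or NRT, here the nitrate list, 12 were higher and 48 lower of 132 (median -0.33). The words take in models of the NRT1/PTR family by name, and what these models carry was not tested. Among amino acid transport genes, 12 were higher and 33 lower of 103 (median -0.11). On day 21, where 17.1% of all models passed, the nitrate list had 23 higher and 9 lower. On day 27, where 21.7% passed, it had 32 higher and 20 lower. The amino acid list had 15 higher and 7 lower on day 21 and 17 higher and 13 lower on day 27. Over the mean of 6 days, the models of the nitrate list with the smallest adjusted p were TraesCS4A03G0729500 (-0.70 ± 0.06, adjusted p = 5.16e-10) and TraesCS5A03G0008900 (0.72 ± 0.08, adjusted p = 1.74e-07). Both were described as NRT1/PTR family 2.11-like. TraesCS5B03G0054000, described as a cationic amino acid transporter of the vacuole, was 1.40-fold higher (adjusted p = 5.78e-09). TraesCS1D03G0637900, described as an amino acid permease, was 3.61-fold lower in basal spikelets (-1.85 ± 0.18, adjusted p = 6.79e-09). Nitrate and nitrite reductase, which reduce nitrate to ammonium, had 2 higher and 2 lower of 8. A nitrate reductase on 6D, TraesCS6D03G0042700, was 2.86-fold higher (1.52 ± 0.10, adjusted p = 5.04e-12), at low means of 1.53 FPKM over basal and 0.789 FPKM over central libraries. The nitrite reductase TraesCS6A03G0859300 was lower (-0.64 ± 0.18, adjusted p = 0.00639), at 0.697 against 0.871 FPKM. The median of this list was -1.15 on day 21 and 0.755 on day 27. Aspartate kinase, which takes aspartate into lysine and threonine synthesis, had 0 higher and 3 lower of 9, with TraesCS5D03G1167200 at -0.14 ± 0.05 (adjusted p = 0.0313). Degradation of branched-chain amino acids had 12 higher and 1 lower of 14, with a median of 0.47, and TraesCS5A03G0135200, described as the alpha subunit of methylcrotonoyl-CoA carboxylase of leucine breakdown, was at 6.55 against 3.53 FPKM (0.92 ± 0.04, adjusted p = 6.29e-16). The 1 lower model of that list was TraesCS5D03G0320000 (-0.11 ± 0.04, adjusted p = 0.0449). The median of that list was 0.97 on day 9 and 0.026 on day 27.

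Genes that Arabidopsis work places around sugar and energy status were also counted. The kinase SnRK1 had 0 higher and 3 lower of 4 models, led by TraesCS3B03G0810600 (-0.21 ± 0.03, adjusted p = 5.71e-06), and bZIP transcription factors of the S1 and C kind, known in Arabidopsis to act with that kinase on asparagine synthetase and proline dehydrogenase, had 0 higher and 9 lower of 10, with a median of -0.56 and the model TraesCS6D03G0177300, joined with a neighbouring gene, at -0.69 ± 0.09 (adjusted p = 4.01e-07). The median of the bZIP list was -1.03 on day 15 and 0.30 on day 27. Over the mean of 6 days, at an unadjusted p under 0.05, edgeR, DESeq2 and limma also had 0 higher models of aspartate kinase, SnRK1, these bZIP factors and proline dehydrogenase. Both proline dehydrogenase models were lower in basal spikelets, TraesCS1A03G0552200 by 0.44 on the log2 scale (-0.44 ± 0.11, adjusted p = 0.00189). Clock genes, a list added after the values were seen, had 9 higher and 6 lower of 22 over the mean of 6 days and 12 higher and 6 lower on day 9, where their median log2 difference was 0.46, against 36.3% of all models past the threshold and a median of 0.015 over all models on that day. Over the mean of 6 days the pseudo-response regulator TraesCS4D03G0224500 was higher by 0.20 ± 0.03 (adjusted p = 1.25e-06) and TraesCS7B03G0535400, described as LHY, was lower (-0.28 ± 0.04, adjusted p = 1.24e-05), and limma called 4 higher in place of 9. The hour of sampling was not given in the labels, and its part in the day 9 differences was not tested. The counts over the mean of 6 days are read beside the 33.5% of models that passed in the mean of 6 days and the median of -0.004 over all models.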

How the data were processed

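The deposited table gave, per the file headers, a column of counts and a column of FPKM for each of the 34 libraries, with description, position and gene name of each model. The authors' counts were whole numbers, and the file headers, which read only count or FPKM with the library name, did not say whether normalization had been applied. FPKM as a measure is scaled for transcript length and library total. Small counts (up to 40) fell on multiples of 4 in 33.9 to 35.6% of cases, against 25% if spread evenly, so a count may not be 1 fragment and no counting floor is given. For the aligner, the counting tool, the strand setting and the genome build, the sources used here gave no name that applies to wheat. The submitters' processing notes list Bowtie 0.12.2 along with mm8 and mm9, both of them mouse builds. RNA was extracted with Trizol, per the labels' protocols.

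Models that reached 1 FPKM in 2 or more libraries (71963 of 162233, holding 98.86 to 99.21% of each library's counts) were fitted in edgeR 4.0.16 (R 4.3.3) with TMM scaling (factors 0.899 to 1.126), 12 group means and the bias-adjusted quasi-likelihood test (legacy = FALSE), with Benjamini-Hochberg adjustment over all models of a contrast. A member can pass the filter through its high group alone. The SE is the absolute log2 difference divided by the square root of F. The test was also run on simulated counts, with a single fixed spread for all models and changes in basal day 9 only. The SD of the group 4 copies reached 63.7 to 73.2% of a group mean, so that run does not bear on their calls. Ratios of copies are log2 ratios of FPKM, tested by permuting positions within days. Alternatives were RLE size factors, DESeq2 1.42.0, limma 3.58.1 on log2(FPKM + 1) and log2(FPKM + 0.1), no filter, a filter of at least 6 libraries, the replicate number as a block, summed copies, and leaving out day 9 or each library. All 10 members are named, and from each gene list the model with the smallest adjusted p in each direction is named. The members and lists were chosen with earlier results of these data known. Planned protein and promoter sequences were not used here.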

Additional observations from a re-analysis of the deposited data

Results flagged for a closer look

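The basal minus central difference itself differed between days for all 10 genes, by the F test over 5 contrasts in edgeR with Benjamini-Hochberg adjustment, as it did for 56.7% of all models. The adjusted p was 2.22e-06 for TraesCS5B03G0418800, 2.53e-05 for TraesCS5D03G0389800 and 1.84e-05 for TraesCS5A03G0421300. In the group 4 set it was 9.24e-06 for TraesCS4D03G0481800, 0.00137 for TraesCS4A03G0227300 and 0.00297 for TraesCS4B03G0544200. On the group 1 chromosomes it was 0.00274 for TraesCS1B03G1099700, 0.00528 for TraesCS1A03G0924600, 0.0178 for TraesCS1D03G0907800 and 0.0253 for TraesCS1A03G1029000. The size of the daily differences ran from -1.69 to -0.09 for the 5B copy, from 0.07 to 1.35 for the 5D copy, from -0.54 to 3.25 for the 4D copy and from -1.52 to 1.13 for the 4B copy.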

How the results depend on the processing

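Over the mean of 6 days the number of members past the threshold was 4 or 5 under each of 8 other settings and each of 34 fits without 1 library, and the calls of the 5D, 5B, 5A and 4D copies held in all of these. With the counts of homoeologous copies summed, the group 5 set was at 0.22, opposite in sign to the 5B copy, and the group 4 set at 0.49. Neither sum had the same sign on every day. The 4B copy alone was at -0.02 ± 0.15 (adjusted p = 0.999), without a clear sign. Each sum was taken over copies that differed from each other, and is a different quantity from any one copy. On day 12, limma on log2(FPKM + 1) called 3 members in place of 5. On day 15 it lost the 1B copy and gained the 2-like gene, so its count stayed at 4. On day 21 limma called 0 in place of 4, with 2 members at an unadjusted p under 0.05, and DESeq2 called 4. Without 1 library each, the counts ran from 3 to 5 on days 9 and 12, from 2 to 5 on day 15, from 0 to 5 on day 21 and from 0 to 2 on day 27. The ratio of 5A to 5D was -0.16 without day 9 and no longer passed, while those of 1A to 1B (0.10) and 1B to 1D (-0.13) then passed. Without 1 library the ratio of 1A to 1B ran from 0.06 to 0.10 and that of 1B to 1D from -0.107 to -0.073, with passes in 7 and 2 of 34.

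The replicate numbers were checked for pairing of the libraries. Over 16 pairs of a basal and a central library of the same number and day, r of the deviations ran from -0.11 to 0.126, with 1 pair over 0.1. Between unlike numbers of a day r ran from -0.19 to 0.26, both on day 27. With 2 or 3 libraries in a group, such values cannot exclude pairing. With the number as a replicate block, a single factor over all days, 2 members passed on day 21 in place of 4, and 5 passed over the mean of 6 days as before. Among the lists, the clock genes called higher ranged from 4 to 9 over the other settings. The 4D copy was low on day 27, with as few as 111 counts in a library.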
